A study of Mus musculus with 20 samples.

Results

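The genes described here set the decision of a cell to leave G1, the gap before DNA replication, and were read by symbol from the RNA-seq table of a study of mouse embryonic stem cells (ESC). All 10 were found, each on 1 row, among 29692 genes. They are the D cyclins Ccnd1, Ccnd2 and Ccnd3, the E cyclins Ccne1 and Ccne2, the inhibitors Cdkn1b, Cdkn2a, Cdkn2b and Cdkn2c, and the pocket protein gene Rb1. The cells were cultured with 10% serum plus leukemia inhibitory factor and sorted by flow cytometry on Nanog and Sox2. State 3 is low for both, state 2 is low for Nanog but high for Sox2, and state 1 is high for both. The whole culture, called the total population, was the 4th group and holds the other 3. Each group had 3 RNA-seq libraries, but the table gives 1 normalized value per gene and group, so no spread between libraries can be shown. The sources used here do not name the ESC line or the reporter or stain behind the sort, nor say whether libraries came from separate cultures.

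In a dividing cell, D cyclins bind the kinases Cdk4 and Cdk6 and begin the phosphorylation of the retinoblastoma protein Rb, which holds back E2F transcription factors. E cyclins with Cdk2 complete it, and E2F then switches on the genes of DNA synthesis. The Ink4 proteins, among them those of Cdkn2a, Cdkn2b and Cdkn2c, block Cdk4 and Cdk6, and the Kip protein p27 of Cdkn1b blocks Cdk2 complexes. Mouse ESC are known for a short G1, for cyclin E with Cdk2 active through much of the cycle and for Rb kept largely phosphorylated, and they lengthen G1 as they differentiate.

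The RNA-seq values summed to between 16.9 and 17.7 M per group, standing for roughly 48.0 M reads in state 3, 60.4 M in state 2, 55.4 M in state 1 and 52.1 M in the total population. Nanog was at 440.0 in state 3, 743 in state 2, 4145 in state 1 and 2783 in the total population. Sox2 was at 1306, 3167, 4155 and 3954.5 in the same order of groups. Nanog was lower in states 3 and 2 than in state 1, and Sox2 was lowest in state 3, as the sort labels give. Of 10 ESC markers, 5 fell and 0 rose in state 3 against state 1, with a median log2 ratio of -0.96. All 10 have a mean value of 50 or more, and 42.1% of such genes were called in either direction. Nanog and Sox2, on which the states were sorted, are among the 5. Esrrb, a nuclear receptor gene of ESC, had 602 in state 3 and 9206 in state 1, while Pou5f1, the Oct4 gene, had 9826 in state 3 and 13810.4 in state 1 and was not called. Markers of cell types that such cultures can hold were higher in state 3 than in state 1 in 7 of 13 measured feeder fibroblast genes, 7 of 11 primitive endoderm genes, 7 of 9 trophectoderm genes and 3 of 8 mesendoderm genes, where 11.4% of all genes were higher. Tfap2c of the trophectoderm list and Bmp4 of the mesendoderm list were lower (log2 -1.81 and -1.87).

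Differences between groups are given as log2((value + 1)/(value + 1)). The authors' deposited table gives each gene a probability for every pattern of equal and unequal groups. A gene was called different between 2 groups where the patterns that separate them summed to 0.95 or more. The probabilities are the authors' own, and the order of the patterns was inferred, as described under the processing.

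Between state 3 and state 1, 4 of the 10 genes rose and 1 fell. Cdkn2b, Cdkn2a, Ccne2 and Ccnd2 rose and Ccnd3 fell, while Ccnd1, Ccne1, Cdkn1b, Cdkn2c and Rb1 were not called. The background was 20.4% of all genes called, 11.4% higher and 9.01% lower. It rose with abundance, to 42.1% of the 11576 genes with a mean value of 50 or more. Of the 10 genes 7 are that abundant, and 3 of these 7 were called, or 42.9%, so the share called is near the background and is no result about the group. The median log2 ratio of the 10 genes was 0.75, against 0 over all genes.

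**Figure D1:**
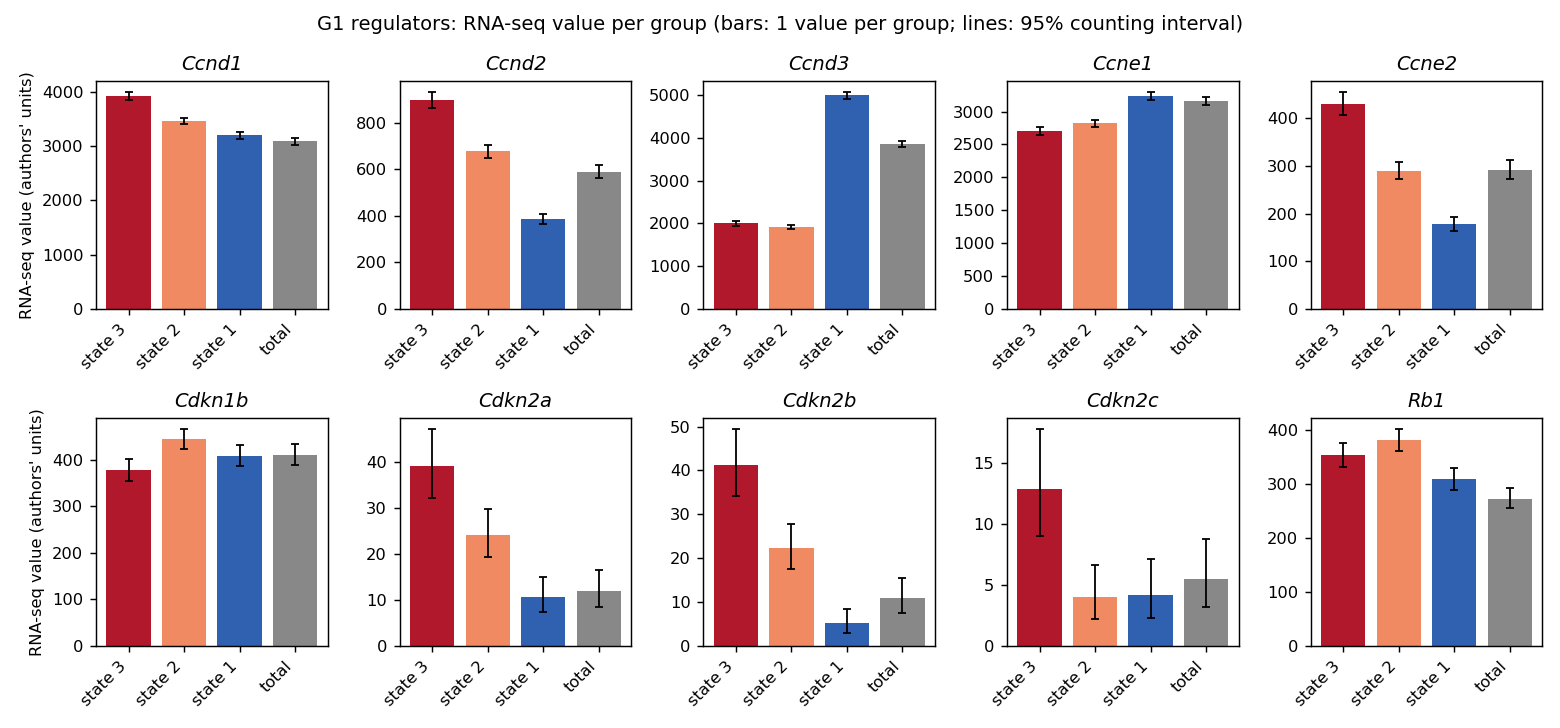
RNA-seq value (authors' units, linear axis from 0) of the 10 genes in state 3, state 2, state 1 and the total population. Each bar is the single value of a group, and lines are approximate 95% Poisson intervals that cover counting error only, not the spread between libraries. Ccnd3 stands at 2001 in state 3, 1917 in state 2 and 4999 in state 1, and the bars of Ccnd2, Ccne2, Cdkn2a and Cdkn2b descend from state 3 through state 2 to state 1.

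The start regions of the Ink4 genes are shown because Cdkn2a and Cdkn2b lie next to each other on chromosome 4 and their RNAs had the largest called rises of the 10. The windows run from 250 bases before to 50 bases after a RefSeq gene start in GRCm38.p6, on the minus strand, written 5′ to 3′. Capitals mark matches to E2F words (TTTCCCGC, TTTCGCGC, TTTGCCGC or TTTGGCGC) and to the GC box GGGCGG, searched on both strands. Cdkn2a has 2 starts, an upstream one that is known to make p19Arf and a downstream one that is known to make p16Ink4a.

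Cdkn2a upstream start, chr4:89294570-89294869: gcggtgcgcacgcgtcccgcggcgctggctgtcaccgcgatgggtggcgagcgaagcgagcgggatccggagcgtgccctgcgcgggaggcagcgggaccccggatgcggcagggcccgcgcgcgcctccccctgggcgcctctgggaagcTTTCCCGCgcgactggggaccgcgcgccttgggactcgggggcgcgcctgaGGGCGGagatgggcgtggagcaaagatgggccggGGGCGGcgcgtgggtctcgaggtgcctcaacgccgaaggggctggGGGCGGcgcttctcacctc
Cdkn2a downstream start, chr4:89282143-89282442: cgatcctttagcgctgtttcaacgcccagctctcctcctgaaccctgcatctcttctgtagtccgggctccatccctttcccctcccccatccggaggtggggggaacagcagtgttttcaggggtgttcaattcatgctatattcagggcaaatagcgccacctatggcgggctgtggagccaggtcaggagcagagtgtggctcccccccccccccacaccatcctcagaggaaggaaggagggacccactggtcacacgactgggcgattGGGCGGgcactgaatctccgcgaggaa
Cdkn2b start, chr4:89310983-89311282: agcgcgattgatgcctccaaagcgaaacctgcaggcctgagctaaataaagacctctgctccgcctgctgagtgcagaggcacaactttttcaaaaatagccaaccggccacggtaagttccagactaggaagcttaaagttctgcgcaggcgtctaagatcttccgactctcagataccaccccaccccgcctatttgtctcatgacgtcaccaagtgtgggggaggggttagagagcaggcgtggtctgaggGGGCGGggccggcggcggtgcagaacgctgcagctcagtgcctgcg

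The 3 windows are unlike in base composition. The upstream Cdkn2a window holds 45 CpG dinucleotides and 77% G and C, more CpG than 98.1% of all 32851 start windows. The downstream Cdkn2a window holds 12 CpG and the Cdkn2b window 18, against a median of 7 over all windows. An E2F word was found in the upstream Cdkn2a window alone among the 9 windows of Ccnd3, Ccne1, Cdkn1b, Cdkn2a, Cdkn2b and Cdkn2c, 99 bases before the start, and 2.26% of all windows hold such a word. The GC box is common, in 35.7% of all windows, and was in 8 of these 9 (the exception is the downstream start of Cdkn2c, which holds the E-box CACGTG). The AP-1 words TGACTCA and TGAGTCA and the TCF/LEF words CTTTGAT and CTTTGAA were in none of the 9 windows, and 5.2% and 8.65% of all windows hold them. The E2F words and the GC box each contain a CpG, and all 9 windows hold more CpG than the median window. The shares over all windows were not matched for CpG, so they are no test of enrichment. Letters in a window show no binding. Ccnd1, Ccnd2, Ccne2 and Rb1 had no entry in the RefSeq table of start windows.

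D cyclins parted from each other. Ccnd3 (ENSMUSG00000034165.16; chromosome 17, 47505051 to 47599689 in GRCm38), the D cyclin with the main role in lymphoid and erythroid cells of the mouse, had 2001 in state 3, 1917 in state 2, 4999 in state 1 and 3869 in the total population. The value in state 1 was the highest of the 4, and states 3 and 2 lay close to each other. Its end overlaps Bysl, a gene that was not called. Ccnd3 fell by 1.32 on the log2 scale in state 3 against state 1, an end at which 2.9% of the abundant genes had lower ratios. It fell by 1.38 in state 2 against state 1, where 1.1% of the abundant genes had lower ratios. The authors' deposited table gave 0.983 to the single pattern in which states 3 and 2 are equal and apart from an equal state 1 and total population. In these sorted bulk samples, fewer cells with a transcript and less of it per cell cannot be told apart.

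Ccnd2 (ENSMUSG00000000184.12; chromosome 6, 127125162 to 127152188), a D cyclin that responds to mitogens and to Myc in several mouse tissues, went the other way. It had 897 in state 3, 677 in state 2, 387 in state 1 and 589 in the total population, so that the states were graded and the total population lay inside their range. Ccnd2 rose by 1.21 on the log2 scale in state 3 against state 1 (summed probability 0.998) and by 0.81 in state 2 against state 1 (0.965, just inside the threshold). The step between state 3 and state 2, at 0.41, was not called (0.213). The authors' deposited table split its probability for Ccnd2 among several patterns, the highest being 0.391 for state 1 alone apart, and both calls were lost if state 1 and the total population were exchanged in the pattern order (0.606 and 0.428).

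Ccnd1 (ENSMUSG00000070348.5; chromosome 7, 144929931 to 144939831), the cyclin best known as a readout of growth factor signals, was nearly level. Its values were 3928 in state 3, 3463 in state 2, 3205 in state 1 and 3091 in the total population. The log2 ratio of state 3 to state 1 was 0.29, and the authors' deposited table gave 0.908 to equality of all 4 groups. The counting intervals, 3854 to 4002 in state 3 and 3142 to 3268 in state 1, do not overlap, but they leave out the spread between libraries.

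Set side by side, the log2 ratio of Ccnd2 exceeded that of Ccnd3 by 2.53 when state 3 was set against state 1, and by 2.19 when state 2 was. For state 3 against state 2 the excess was 0.34. Most of the parting of these D cyclins thus lay between state 2 and state 1. The difference between genes was not tested, since the table holds no libraries. The summed values of the 3 D cyclins, not corrected for transcript length, were 6826 in state 3, 6057 in state 2, 8591 in state 1 and 7549 in the total population.

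E cyclins also parted. Ccne2 (ENSMUSG00000028212.16; chromosome 4, 11190433 to 11204779) had 430.0 in state 3, 290.2 in state 2, 178 in state 1 and 292 in the total population. The states were graded, and the total population was level with state 2. Its end overlaps Ints8, a gene that was not called. Ccne2 rose by 1.27 on the log2 scale in state 3 against state 1 and by 0.70 in state 2 against state 1 (summed probabilities of 1.00). It rose by 0.57 in state 3 against state 2 (0.997) and was the single gene of the 10 called between these states, against a background of 8.59% of all genes (5.41% higher, 3.19% lower) and 18.2% of the abundant ones. With state 1 and the total population exchanged in the pattern order, the call of state 2 against state 1 was lost (0.127).

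Ccne1 (ENSMUSG00000002068.16; chromosome 7, 38097984 to 38107490), the other activator of Cdk2, had 2699.7 in state 3, 2821 in state 2, 3235 in state 1 and 3159.7 in the total population. The log2 ratio to state 1 was -0.26 in state 3 and -0.20 in state 2, and the authors' deposited table gave 0.948 to equality of all groups. The log2 ratio of Ccne2 exceeded that of Ccne1 by 1.53 in state 3 against state 1 and by 0.90 in state 2 against state 1. Both E cyclins encode partners of Cdk2, whose own RNA is described with the pathway.

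**Figure D2:**
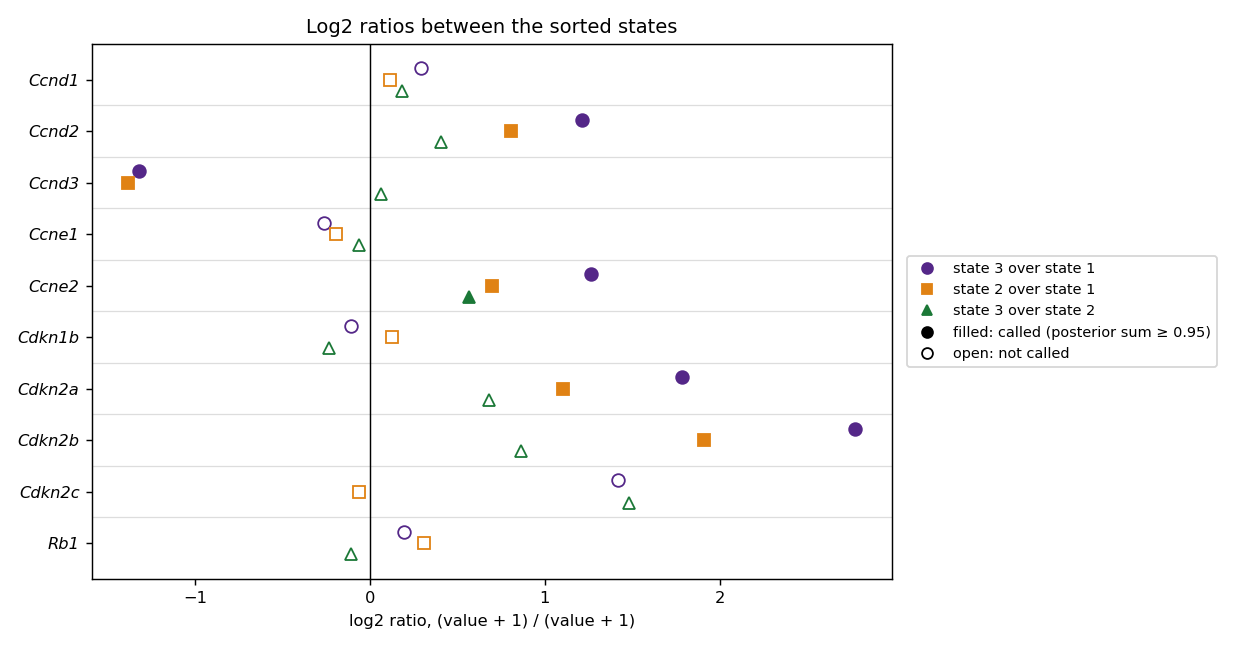
Log2 ratio (value + 1 over value + 1, horizontal axis) of each gene for state 3 over state 1 (circles), state 2 over state 1 (squares) and state 3 over state 2 (triangles), filled where called. Ccnd3 at -1.32 and -1.38 is the single called fall. Ccne2 has the single filled triangle, at 0.57.

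Of the Ink4 inhibitor genes, Cdkn2b and Cdkn2a rose in state 3 against state 1, and Cdkn2c was not called. Cdkn2b (ENSMUSG00000073802.4; chromosome 4, 89306289 to 89311032) encodes p15, an inhibitor known as a target of TGF-beta signals. It had 41.25 in state 3, 22.2 in state 2, 5.17 in state 1 and 11.0 in the total population. The counting intervals of the 3 states, 34.0 to 49.5, 17.6 to 27.7 and 2.96 to 8.38, do not overlap. Cdkn2b rose by 2.78 on the log2 scale in state 3 against state 1, the largest change of the 10 genes, and by 1.91 in state 2 against state 1. With a pseudocount of 10 in place of 1 the first ratio was 1.76. State 3 against state 2 had a ratio of 0.86 and was not called, with 0.999 in the authors' deposited table for states 3 and 2 equal and apart from an equal state 1 and total population.

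Cdkn2a (ENSMUSG00000044303.6; chromosome 4, 89274473 to 89294619) encodes p16Ink4a and, from its upstream start, p19Arf, which stabilises p53 by binding Mdm2. The table does not separate these transcripts. It had 39.1 in state 3, 23.99 in state 2, 10.6 in state 1 and 11.9 in the total population, with state 1 and the total population alike and the other states above them. Cdkn2a rose by 1.79 on the log2 scale in state 3 against state 1 and by 1.10 in state 2 against state 1 (0.983, a call lost at a threshold of 0.99). State 3 against state 2 had a ratio of 0.68 and was not called (0.366).

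Both genes are close relatives, and the sources used here do not say how the authors' counting divides reads that match both. Gm12610, a noncoding gene that overlaps Cdkn2b, was listed at 0.36 in state 3 and at 0 in the other groups. Summed over the 13 measured feeder fibroblast markers, the value was 1880.3 in state 3, 487 in state 2, 285 in state 1 and 424 in the total population. Of these markers 7 rose and 0 fell in state 3 against state 1, among them the collagen genes Col1a1, at 827 in state 3 and 23.0 in state 1, and Col3a1, at 167 in state 3 and 2.61 in state 1. Dcn and Lum, which mark fibroblasts too, were not called, with Dcn at 12.4 in state 3 and listed at 0 in state 1, and Lum at 1.46 in state 3 and 0.32 in state 1. The primitive endoderm markers summed to 8371, 3083, 1749.9 and 2184, and the trophectoderm markers to 9939.9, 2772, 1300.3 and 2166, in the same order of groups. Most of these sums in state 3 came from Col4a1, at 5754, and from Krt8 and Krt18, at 5389 and 3437. Sox17 (23.6 in state 3 against 1.60 in state 1) and Cdx2 (400 against 4.18) were called higher. Gata6 (30.8 against 5.51) and Elf5 (0.36 against 0.64) were not called. The mesendoderm markers summed to 620.0, 227, 637 and 507, with state 3 not above state 1. Most of the state 1 sum was Bmp4, at 155 in state 3 and 569 in state 1. The other called genes of this list were higher in state 3 than in state 1. These were Wnt3 (252 against 4.84), T (84.6 against 4.52) and Eomes (81.7 against 35.5). The part of such cells in the values of Cdkn2a and Cdkn2b was not tested.

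Cdkn2c (ENSMUSG00000028551.14; chromosome 4, 109660876 to 109666756), which encodes p18, had 12.9 in state 3, 3.98 in state 2, 4.20 in state 1 and 5.47 in the total population. State 3 was the highest and the other groups were alike. The values stand for about 36, 14, 13 and 17 reads, with counting intervals of 9.03 to 17.9 in state 3 and 2.24 to 7.16 in state 1. The log2 ratio of state 3 to state 1 was 1.42, and 0.69 with a pseudocount of 10. The authors' deposited table gave 1.00 to equality of all groups, and no difference was called.

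The Kip inhibitor gene Cdkn1b (ENSMUSG00000003031.14; chromosome 6, 134920401 to 134925525), whose protein p27 is set mainly by its turnover, had 378 in state 3, 445 in state 2, 408 in state 1 and 411 in the total population. State 2 was the highest and state 3 the lowest, and the log2 ratio of state 3 to state 1 was -0.11. The authors' deposited table gave 0.935 to equality of all groups.

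Rb1 (ENSMUSG00000022105.6; chromosome 14, 73192858 to 73325951) had 353 in state 3, 382 in state 2, 308 in state 1 and 273 in the total population. All states lay above the total population, with state 2 the highest. Lpar6, a gene inside Rb1 whose reads may not be told apart from those of Rb1, was higher in state 3 than in state 1 (log2 1.37). The log2 ratio to state 1 was 0.20 in state 3 and 0.31 in state 2. No difference was called, and the authors' deposited table gave 0.573 to equality of all groups, the lowest value among the uncalled genes. Rb1 was thus neither called different nor given a high probability of being equal.

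Between state 2 and state 1, 4 of the 10 genes rose (Cdkn2b, Cdkn2a, Ccnd2 and Ccne2) and 1 fell (Ccnd3). The background was 13.4% of all genes called, 7.11% higher and 6.33% lower, and 28.7% of the abundant ones. This comparison shares the state 1 libraries with the one above. State 2 had covered 1.05 of the log2 distance between state 1 and state 3 for Ccnd3, 0.69 for Cdkn2b, 0.66 for Ccnd2, 0.62 for Cdkn2a and 0.55 for Ccne2. The median over the 6070 genes called between state 3 and state 1 was 0.60, with an interquartile range of 0.42 to 0.79, so Ccnd3 lay above this range and the other 4 within it.

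**Figure D3:**
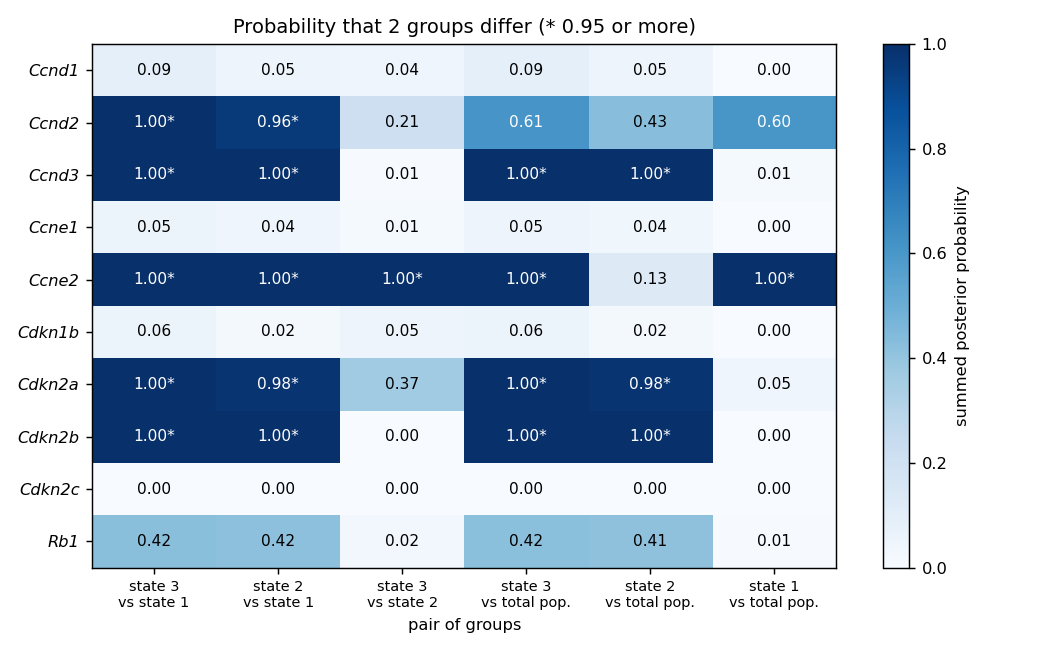
Probability that 2 groups differ, summed over the patterns of the authors' deposited table, for the 10 genes (rows) and 6 pairs of groups (columns), with an asterisk at 0.95 or more. Ccne2 alone has an asterisk in the columns of state 3 with state 2 and of state 1 with the total population.

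Against the total population, which holds cells of all states, 4 of the 10 genes were called in state 3, where the background was 19.1% of all genes (10.8% higher, 8.32% lower) and 39.4% of the abundant ones. Ccne2 (log2 0.56), Cdkn2a (1.63) and Cdkn2b (1.82) were higher and Ccnd3 (-0.95) was lower. In state 2, 3 genes were called, against a background of 11.1% (5.82% higher, 5.3% lower) and 24% of the abundant genes, with Cdkn2a (0.95) and Cdkn2b (0.96) higher and Ccnd3 (-1.01) lower. The call of Cdkn2a (summed probability 0.981) was lost at a threshold of 0.99. In state 1, 1 gene was called, against a background of 1.98% (0.707% higher, 1.27% lower) and 4.52% of the abundant genes, and this was Ccne2 (-0.71). Ccnd3 in state 1 had a ratio of 0.37 to the total population and was not called (0.012). These comparisons share the total population, and their calls are not independent of each other.

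Other genes of the pathway were read from lists of known function. Between state 3 and state 1, where 20.4% of all genes and 42.1% of the abundant ones were called, the counts below describe each list and were not tested against that background. Among the kinases and their activators, none of Cdk2, Cdk4, Cdk6, Cdk7, Ccnh and Mnat1 was called between state 3 and state 1. Cdk4, the most abundant, had 5480 in state 3, 5182 in state 2, 5548 in state 1 and 5261 in the total population. Cdk2 was lower in state 2 than in state 1 (log2 -0.27), and Cdk6 was lower in state 3 than in state 2 (log2 -0.26, summed probability 0.958).

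Of the 3 CDK inhibitor genes outside the 10, 2 rose in state 3 against state 1. Cdkn1c, the p57 gene, had 3301 in state 3, 1364 in state 2 and 498 in state 1 (log2 2.73). Cdkn1a, the p21 gene and a p53 target, had 693 in state 3, 455 in state 2 and 247 in state 1 (log2 1.48). Cdkn2d, the p19Ink4d gene, had 96.1 in state 3 and 101 in state 1 and was not called.

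Of 12 pocket protein and E2F or DP genes, 2 rose and 5 fell in state 3 against state 1, with a median log2 ratio of -0.26. E2f2, an activating E2F, fell by 1.83 on the log2 scale, to 165 in state 3, against 590.4 in state 1. E2f1, another activator, fell by 0.77. E2f6, a repressor that acts without Rb, rose by 1.23, to 546 in state 3, against 232 in state 1. Rbl1 and Rbl2, the p107 and p130 relatives of Rb, fell by 0.42 and 0.77.

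E2F-regulated genes of S phase fell in 9 of 16 cases and rose in 0, with a median of -0.32, and all 16 are abundant genes, of which 42.1% were called in either direction. Mybl2, a MYB factor of proliferating cells, fell by 1.93, Cdt1, a replication licensing factor, by 0.85, and Mcm6, a helicase subunit, by 0.48. G2/M genes fell in 7 of 12 cases and rose in 0, with a median of -0.57, and these 12 are abundant genes too, with the same background of 42.1%. Aurkb, a mitotic kinase, fell by 1.06, Top2a, a topoisomerase of dividing cells, by 1.05, and Ccnb1, cyclin B1, by 1.02. The remaining 5 G2/M genes were not called, among them Mki67, at 8318 in state 3 and 8340 in state 1. The median over all genes was 0.

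Of 11 genes for the turnover of G1 cyclins and p27, 3 rose and 4 fell. Fbxo4, an F-box gene linked to cyclin D1 degradation, had 44.3 in state 3 and 12.9 in state 1 (log2 1.70). Usp28, a deubiquitinase that opposes the cyclin E ligase subunit Fbxw7, fell by 1.12 and Fbxo31, another F-box gene linked to cyclin D1, fell by 0.54. Skp2, which directs p27 to degradation, had 1244 in state 3 and 1181 in state 1 and was not called. The other called rises were Cks1b (1980 in state 3, 1404 in state 1, log2 0.50) and Cul1 (2531 and 1826, log2 0.47). The other called falls were Ambra1 (log2 -0.38) and Fbxw7 (log2 -0.31).

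Polycomb complexes are known to silence the locus that holds Cdkn2a and Cdkn2b. Of 10 Polycomb genes, 1 rose and 5 fell in state 3 against state 1, with a median of -0.41, against a background of 20.4% of all genes and 42.1% of the abundant ones called. Eed, a core subunit of the complex that methylates histone H3, fell by 1.02 and Pcgf2, also known as Mel18, fell by 0.68. Cbx8 rose, at 26.3 in state 3 and 11.6 in state 1 (log2 1.11). Bmi1, the member best known for this locus in mouse fibroblasts, had 57.7 in state 3 and 36.7 in state 1 and was not called.

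Of 11 genes that act upstream of D cyclins in growth factor and Wnt signalling, 7 rose and 2 fell, with a median of 1.39. Lef1, a nuclear effector of Wnt signals, rose by 3.48, Fosl1, an AP-1 subunit, by 2.35, and Egr1, an immediate-early factor, by 2.27. Myc had 2177 in state 3 and 1441 in state 1 and was not called, and Mycn fell by 0.37.

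**Figure D4:**
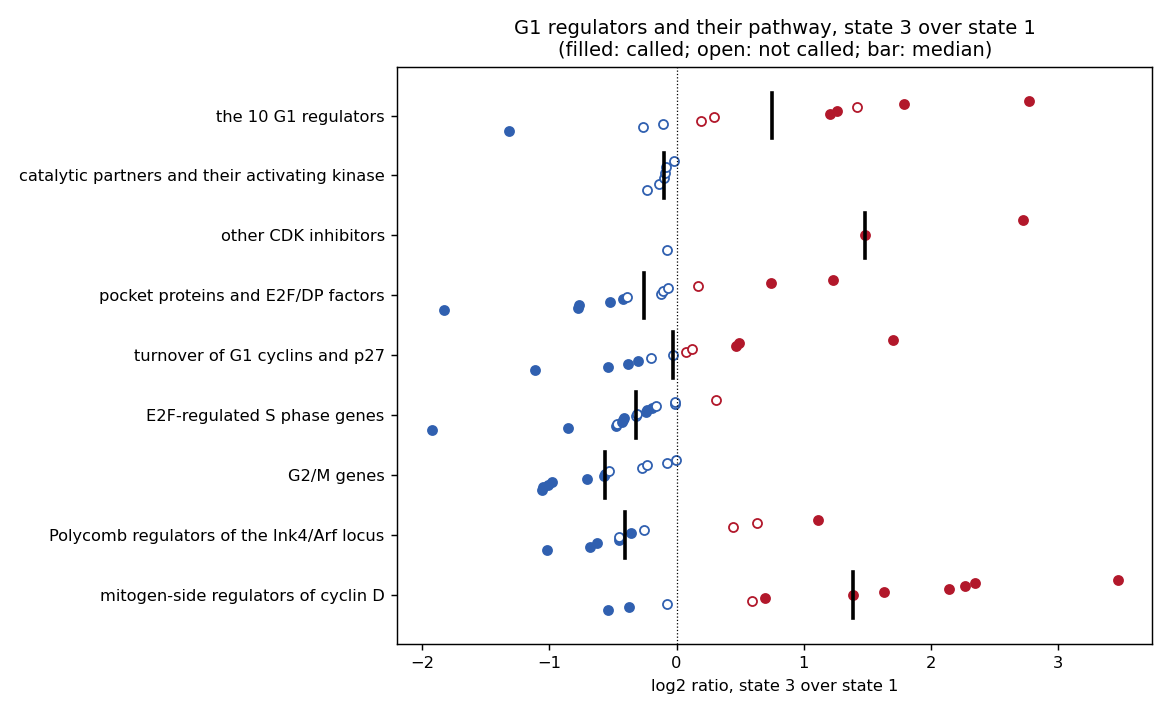
Log2 ratio of state 3 over state 1 for the 10 G1 regulators and 8 lists of pathway genes, 1 circle per gene, red above 0 and blue below, filled where called, with a bar at each median. The kinases lie just below 0 with no filled circle, and the S phase and G2/M lists hold filled circles only below 0.

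The genes whose values over the 4 groups lay closest to each gene, by the Euclidean distance of centred log2 values among 10776 named genes with a mean of 50 or more (Gm and Rik symbols left out), were of mixed kinds. For Ccnd3 they were Abca1 (distance 0.098) and Grik3 (0.11). For Ccnd2 they were Smim10l1 (0.069) and Snx25 (0.13), and for Ccne2 Smim10l1 (0.12) and Eea1 (0.13). Ccnd1, Ccne1, Cdkn1b and Rb1 were not called between any groups. Nearest were Vps37b and Fam219b to Ccnd1, Dbi and Ilf2 to Ccne1, Lrrc8d and Fbln1 to Cdkn1b, and B4galt4 and Slc22a17 to Rb1. How many other genes lie nearly as close was not counted. Only 4 points enter each distance.

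The small RNA table of the same study, made from 8 other libraries, lists short fragments of 9 of the 10 genes, all but Cdkn2c. Ccne1 had 48.9 in state 3, 38.8 in state 2, 28.6 in state 1 and 35.1 in the total population, an order unlike that of its RNA-seq values. Ccnd3 had 15.2, 9.53, 20.2 and 21.4, and Ccne2 had 12.4, 5.78, 2.92 and 4.46, in the same order of groups. The highest probability of any difference in the authors' deposited table was 0.303, for Ccnd2. The fragments of Cdkn2a and Cdkn2b did not exceed 1.11 in any group.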

How the data were processed

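Libraries were rRNA-depleted and strand-marked, per the labels' protocols; STAR 2.4.1d, RSEM 1.2.30, mm10 and GRCm38 are named without roles in the submitters' processing notes. The authors deposited a normalized signal per gene and group, with scaling and the use of strand in counting not stated in the sources used here. The deposited score is a posterior probability per gene for 15 patterns of group equality, from EBSeq per the table's name. Here the scores of patterns that set 2 groups apart were summed and called at 0.95 or more. The pattern order was inferred from 1453 genes with a mean of 5 or more and 1 pattern scored 0.95 or more. Genes whose best pattern had all groups equal or all groups apart were left out. The groups a pattern joins lay closer on average than those it parts in 100% of these genes under the order used. Under the next best of 24 orders, which exchanges state 1 and the total population, this held in 96.6%. With 1 value per group, no test over libraries was possible, and no p-value was computed. The labels do not say that libraries came from separate cultures.

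The 10 genes and all lists were chosen with earlier results of these data known. Named from each list were up to 3 called genes with the largest ratio of state 3 to state 1, or with none called the most abundant; others were named after their values were seen. The worth of 1 read was taken as the commonest value under 0.5 in a column (0.36 in state 3, 0.28 in state 2, 0.32 in state 1 and 0.33 in the total population), which gives approximate depths, the Poisson intervals, and a limit of about 3 reads, 0.84 to 1.08, for a value of 0. Intervals cover counting error only. Rows without a gene name (18) entered no list. Pattern sums were tested on data simulated under the same pattern order, which checks the arithmetic and cannot test the inferred order. Python 3.11.15, pandas 2.3.3, numpy 2.4.6 and scipy 1.17.1 were used.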

Additional observations from a re-analysis of the deposited data

How the results depend on the processing

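The number of the 10 genes called between state 2 and state 1 was 5. It was 3 at a threshold of 0.99, where Ccnd2 and Cdkn2a were lost, and 3 with state 1 and the total population exchanged in the pattern order, where Ccnd2 and Ccne2 were lost. The exchange also gave 5 called genes for state 2 against the total population, against 3. Their number in the other 4 comparisons stayed within 1.5 times under these settings and a threshold of 0.90. The number of all genes called did so in all 6 comparisons, also with a minimum mean of 5. That minimum could not change the number among the 10 genes, whose means all exceed 5. Calls rest on the deposited probabilities, so 3 rescalings of the values could not change any number called. No called gene of the 10 changed sign under a rescaling or a pseudocount of 0.1 or 10, and with 10 the log2 ratio of Cdkn2b was 1.76 for state 3 against state 1. Leaving out replicates was not run, since the table holds 1 value per group. No paired analysis was possible because the columns carry no replicate. Cdkn2c had the lowest read counts of the 10 genes, at about 13 to 36 reads per group. Cdkn2b was called with about 16 reads in state 1. Whether depth bears on the missing call of Cdkn2c was not tested.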

Other observations

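Among genes beside the called G1 regulators, some were called in the same direction and 1 in the other. Between state 3 and state 1, 20.4% of all genes and 42.1% of the abundant ones were called. The neighbours were not tested against that background. Cdkn2a and Cdkn2b lie next to each other and both rose in state 3 against state 1. Dpy19l4, next to Ccne2, rose by 0.48 on the log2 scale, to 469.9 in state 3, against 338 in state 1. Tigar, a p53-responsive phosphatase of sugar metabolism that lies next to Ccnd2, fell by 0.83 on the log2 scale in state 3 against state 1, to 496 in state 3, against 884 in state 1, while Ccnd2 rose. Next to Ccnd3, Taf8, a subunit of the basal transcription machinery, fell by 0.55, and Bysl, which overlaps the end of Ccnd3, had 1511 in state 3 and 1397 in state 1 and was not called. Around Rb1, which was not called, 3 genes rose in state 3 against state 1. Lpar6, a lysophosphatidic acid receptor gene that lies inside Rb1, had 502 in state 3, 457 in state 2, 193 in state 1 and 336 in the total population (log2 1.37). The flanking genes Rcbtb2 and Itm2b rose by 0.71 and 0.85. Ints8, which overlaps Ccne2, had 926 in state 3 and 856 in state 1 and was not called. Positions are those of RefSeq in GRCm38.p6. The sources used here do not say whether the authors' counting used strand, so reads of overlapping genes may not be told apart.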
